A study of Mus musculus with 18 samples.

Results

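The enzymes that turn acetyl-CoA into farnesyl diphosphate were followed in mouse embryonic fibroblasts (MEFs) grown in one of 2 fetal bovine sera. The members were the rows of the count table with the gene names Acat2, Acat3, Hmgcs1, Mvk, Pmvk, Mvd, Idi1 and Fdps, 8 of 55487 genes. Each had 1 row, and all 8 were among the 15381 genes with enough counts to be tested. The 18 RNA-seq libraries formed 6 groups of 3. MEFs kept in Scm (complete medium with S-FBS, the serum in which cells were sensitive to ferroptosis) and MEFs kept in Rcm (complete medium with R-FBS, in which they resisted it) gave the 2 groups without an exchange. Rcm cells given Scm for 12 h or 24 h are called R-Scm, and Scm cells given Rcm for 12 h or 24 h are called S-Rcm. All groups came from wild-type MEFs in the same high-glucose base medium, and the labels name no other treatment. No library analysed here came from cells given fresh medium of the kind they already had, so a new serum and a new medium cannot be told apart. The labels give the groups without an exchange as 0 h. Hours in culture may therefore differ as well, and cannot be told apart from the exchange.

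The mevalonate pathway builds the C5 isoprenoid units from which cells make cholesterol, the prenyl anchors of small GTPases, the side chain of coenzyme Q and dolichol. Cytosolic acetoacetyl-CoA thiolase (Acat2) joins acetyl-CoA units, and HMG-CoA synthase (Hmgcs1) adds another. After reduction to mevalonate, Mvk and Pmvk phosphorylate it, Mvd decarboxylates the product to isopentenyl diphosphate, Idi1 isomerises that, and Fdps condenses the units to farnesyl diphosphate. The genes of this pathway are known targets of the sterol-regulated transcription factor SREBP2, which is held inactive when membranes hold enough cholesterol.

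The promoters of 6 of the 8 genes were found in the RefSeq table for GRCm38.p6, in 7 entries because Pmvk had a pair. Acat3 and Fdps had no entry. The 200 bases before the annotated start were searched on both strands for 4 motifs. These were the sterol response element core TCACNCCAC, the same without its first letter (CACNCCAC), the CCAAT box that NF-Y reads and the GC box GGGCGG. Other forms of the element were not searched. The 3 promoters below are shown because Hmgcs1 holds TCACNCCAC and Mvk and Mvd stand for the promoters without that match that carry repeated CCAAT boxes. Capitals mark a match to any of these motifs, the opposite strand of CCAAT reading ATTGG and that of GGGCGG reading CCGCCC. The windows are chr13:119690151-119690350 on the + strand for Hmgcs1, chr5:114444069-114444268 on the + strand for Mvk and chr8:122443423-122443622 on the - strand for Mvd.
Hmgcs1: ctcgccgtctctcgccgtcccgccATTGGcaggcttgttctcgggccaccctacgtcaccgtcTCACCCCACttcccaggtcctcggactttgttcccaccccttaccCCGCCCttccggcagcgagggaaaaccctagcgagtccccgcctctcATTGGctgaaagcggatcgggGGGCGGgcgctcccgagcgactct
Mvk: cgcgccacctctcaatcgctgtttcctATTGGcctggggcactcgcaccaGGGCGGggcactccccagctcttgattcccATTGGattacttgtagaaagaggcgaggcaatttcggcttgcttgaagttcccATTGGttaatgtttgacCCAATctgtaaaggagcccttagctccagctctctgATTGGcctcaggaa
Mvd: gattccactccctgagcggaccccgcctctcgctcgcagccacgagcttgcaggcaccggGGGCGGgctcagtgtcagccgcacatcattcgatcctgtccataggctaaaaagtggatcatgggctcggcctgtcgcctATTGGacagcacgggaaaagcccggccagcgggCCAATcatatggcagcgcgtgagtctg

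TCACNCCAC stood in the promoter of 1 of the 6 genes, Hmgcs1, starting 137 bases before the start, and in 0.858% of 32851 promoters. For Hmgcs1 alone, the bases after that start were not found in the gene's GENCODE M21 transcripts. GENCODE begins this gene at chr13:119690379, so the distance to its start is uncertain. CACNCCAC, which every TCACNCCAC contains, stood in Hmgcs1 and Acat2 and in 4.30% of all promoters. CCAAT was found in 5 of the 7 entries (Hmgcs1, Mvk, Mvd, Idi1 and 1 entry of Pmvk) and in 29.3% of all promoters, with 5 copies in Mvk and 2 each in Hmgcs1, Mvd and Idi1. GGGCGG was found in 5 entries (Acat2, Hmgcs1, Mvk, Mvd and Idi1) and in 31.0% of all promoters. These matches describe letters in the window and were not tested for binding.

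Acat2 and Acat3 are near copies that lie side by side on chromosome 17 (GRCm38 chr17:12942890-12960747 and chr17:12923813-12940600, both on the - strand). Their coding sequences, 1194 bases each, differed at 27 bases, an identity of 97.7%. The first 120 coding bases, the stretch of that length with the most differences, are shown because they hold 11 of the 27, in capitals, while other stretches of 120 bases hold 0.
Acat2: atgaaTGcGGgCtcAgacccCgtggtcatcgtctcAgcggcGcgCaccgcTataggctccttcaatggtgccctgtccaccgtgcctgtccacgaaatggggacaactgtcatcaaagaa
Acat3: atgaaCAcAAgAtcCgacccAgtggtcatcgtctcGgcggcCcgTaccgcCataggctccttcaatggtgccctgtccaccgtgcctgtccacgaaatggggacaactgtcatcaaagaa

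Acat3 also shares 571 exon bases, 23.5% of its exon bases, with Tcp1, a chaperonin subunit gene on the opposite strand, so that the counts of Acat2, Acat3 and Tcp1 may hold each other's reads. Tcp1 averaged 505 to 577 CPM (counts scaled to a common library total) over the groups and was no differentially expressed gene (DEG) between Rcm and Scm or after either exchange, while Acat3 averaged 12.9 to 35.7 CPM. Fdps has near-identical processed pseudogenes, of which Gm3571 (98.9% identity over 1062 bases) had 64.4 ± 3.88 CPM in Scm, 106 ± 22.2 in Rcm and 30.0 ± 2.27 in R-Scm 12 h (SD, n = 3). Idi1 has the copy Gm13502 (100% over 684 bases), with 41.1 ± 2.98, 89.9 ± 21.6 and 27.7 ± 2.11 CPM in these groups. Fdps also shares 1124 exon bases, 26.7% of its own, with the protein-coding gene Gm43738 on the same strand. Gm43738 averaged 4.12 to 16.3 CPM over the groups and is not among the copies added below. The levels of Acat3, Fdps and Idi1 are therefore uncertain, and values with the copies added are given with the comparisons against the medium the cells came from.

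The libraries held 14534906 to 20313715 counts, and a member had 193 to 8542 counts in a library. The labelled cell type was checked against its markers: the summed fibroblast markers stood at 8053 to 12532 CPM per library, epithelial, endothelial and leukocyte markers summed to at most 5.09 CPM, hepatocyte and adipocyte markers to at most 2.46 CPM, and Adgre1, Ttr and Adipoq were at 0. In bulk libraries, fewer cells that use a gene and less RNA of it per cell cannot be told apart. Abundance per kilobase of exon was taken from each gene's own row, without its copies. Acat2 and Hmgcs1 were the highest by this measure in Scm, with 59.8 ± 7.22 and 59.2 ± 5.51 CPM per kb (SD, n = 3). They were followed by Fdps at 44.7, Idi1 at 34.6, Mvk at 27.9, Pmvk at 21.5, Mvd at 19.0 and Acat3 at 7.14 CPM per kb. Acat2 and Hmgcs1 differed by less than the spread between their libraries. In Rcm the order began with Hmgcs1 (107 CPM per kb), Acat2 (101) and Fdps (92.2) and again ended with Acat3 (14.7). Beside 188 CPM for Fdps in Scm, its processed copies Gm3571 and Gm5873 had 64.4 and 13.4 CPM. In Rcm they had 106 and 32.2 CPM beside 388 CPM. If those reads belong to Fdps, its place would be higher, so the order is uncertain in both media.

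The thiolases, HMG-CoA synthase, Idi1 and Fdps were more abundant in Rcm than in Scm. Of the 8 members, these 5 were DEGs (absolute log2 fold change above 0.58 and Benjamini-Hochberg adjusted p under 0.05), all higher, against 2.30% of all genes tested in either direction. Summed over the members, Scm libraries had 903, 896 and 894 CPM and Rcm libraries 1622, 1708 and 1550 CPM. The median log2 fold change was 0.81 over the members and 0.012 over all genes tested.

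Fdps, which supplies farnesyl diphosphate, had 188, 198 and 180 CPM in Scm and 384, 392 and 389 CPM in Rcm. The groups lay far apart, by 1.04 ± 0.15 on the log2 scale (SE, adjusted p = 0.000916, edgeR). Idi1, the isomerase, stood at 121, 121 and 121 CPM in Scm and at 249, 271 and 210 CPM in Rcm. Every Rcm library was above every Scm library, a 2.01-fold difference (SE 0.17 on the log2 scale, adjusted p = 0.00345). Hmgcs1 had 301, 254 and 261 CPM in Scm and 514, 533 and 434 CPM in Rcm. These groups did not overlap, and the log2 fold change was 0.86 ± 0.21 (adjusted p = 0.0383). Between Rcm and Scm, 23.9% of all genes tested did not overlap. For the thiolases the log2 fold change was 0.76 ± 0.20 in Acat2 (adjusted p = 0.0490) and 1.04 ± 0.16 in Acat3 (adjusted p = 0.00140).

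The enzymes between mevalonate and isopentenyl diphosphate did not pass with edgeR over all 18 libraries. Mvk had a log2 fold change of 0.45 ± 0.13 (adjusted p = 0.0839), Pmvk of 0.40 ± 0.20 (adjusted p = 0.317) and Mvd of 0.72 ± 0.21 (adjusted p = 0.0787). Pmvk overlapped between the groups, at 39.2, 37.0 and 34.2 CPM in Scm and 38.5, 44.2 and 63.1 CPM in Rcm. Mvd had 34.2, 36.1 and 35.4 CPM in Scm and 52.4, 54.2 and 67.9 CPM in Rcm, so that all its Rcm libraries were higher. Mvd was a DEG with DESeq2 (adjusted p = 0.0292) and with edgeR on these groups alone (adjusted p = 0.0144). Without 1 library at a time 3 to 4 members were DEGs, 4 when Rcm replicate 3 was left out and 3 when any other was. Acat3, Idi1 and Fdps passed in each of these fits, Acat2 in none and Hmgcs1 in 1 of the 6. With the counts of Acat2 and Acat3 added together the log2 fold change was 0.79 (adjusted p = 0.0301), and with their processed copies added it was 0.99 for Fdps and 1.04 for Idi1. The summed fibroblast markers were higher in Rcm as well, at 10572 to 11347 CPM against 8569 to 8927 CPM in Scm, and their part in the result was not tested.

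**Figure D1:**
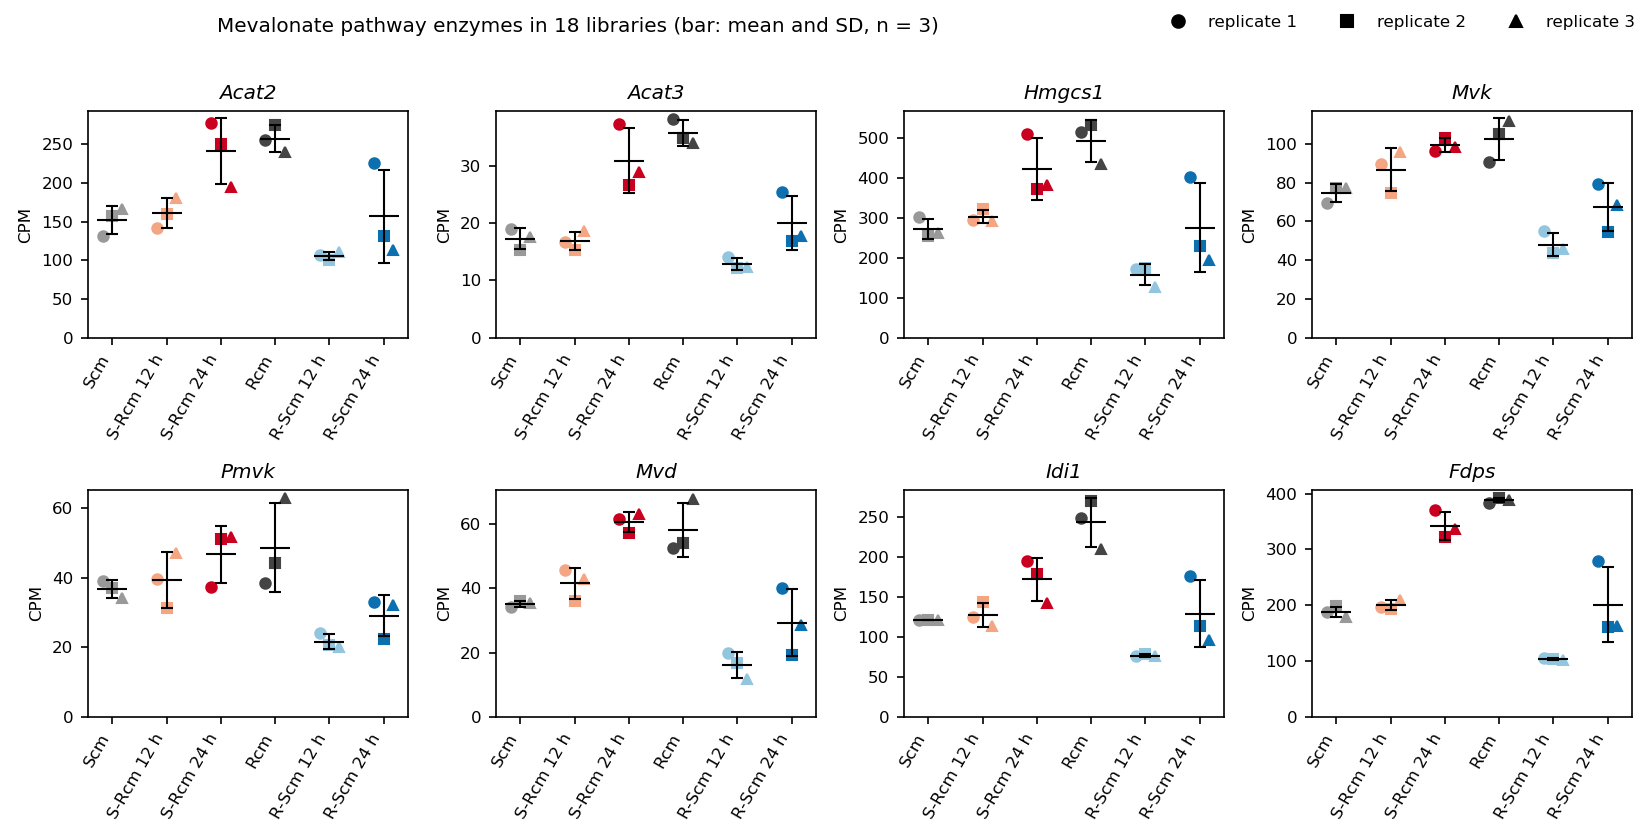
CPM of each of the 8 enzymes (vertical axes, from 0) in the 6 groups, with 1 point per library, its shape giving the replicate number, and bars for the mean and SD of 3 libraries. Rcm and S-Rcm 24 h stand high and R-Scm 12 h low, and replicate 1 of R-Scm 24 h lies above the other libraries of its group in all 8 panels.

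The exchange from Rcm to Scm was followed by lower levels of the whole pathway within 12 h. All 8 members were DEGs and lower in R-Scm 12 h than in Rcm, against 2.74% of all genes tested, with a median log2 fold change of -1.56. Group means were 26.6% to 46.9% of those in Rcm. The summed members fell to 572, 550 and 504 CPM. All 8 remained DEGs in every alternative tried, including each fit without 1 library. The summed fibroblast markers were lower as well, at 8121 to 9341 CPM against 10572 to 11347 CPM in Rcm, and their part in the result was not tested.

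Fdps had 106, 103 and 101 CPM in R-Scm 12 h, a change from Rcm of -1.91 ± 0.16 on the log2 scale (SE, adjusted p = 5.08e-06). All 3 libraries were below every Rcm library, and also below every Scm library. In these comparisons 23.4% and 36.8% of all genes tested did not overlap. Mvd, the decarboxylase, had 19.8, 16.6 and 11.8 CPM, differing by -1.85 ± 0.22 (adjusted p = 0.000127). Idi1 had 75.3, 78.5 and 75.7 CPM, which was -1.67 ± 0.18 relative to Rcm on that scale (adjusted p = 4.66e-05). The libraries of both genes were all below those of Rcm. With the processed copies added the log2 fold changes were -1.91 for Fdps and -1.68 for Idi1, with adjusted p of 3.96e-06 and 0.000134.

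At the head of the pathway, Hmgcs1 had 171, 175 and 127 CPM in R-Scm 12 h and a log2 fold change of -1.65 ± 0.22 (adjusted p = 0.000404). Acat2 changed by -1.28 ± 0.20 (adjusted p = 0.00158) and Acat3 by -1.47 ± 0.16 (adjusted p = 6.78e-05) on the log2 scale, and their summed counts by -1.30 (adjusted p = 0.000814). The kinases changed least among the members, Mvk by -1.09 ± 0.13 (adjusted p = 0.000204) and Pmvk by -1.17 ± 0.20 (adjusted p = 0.00279). Differences in size between members were not tested.

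R-Scm 12 h was also lower than Scm, the medium that both groups then shared. Of the 8 members, 6 were DEGs and lower, against 4.40% of all genes tested, and the median log2 fold change was -0.71. Mvd differed by -1.13 ± 0.21 (adjusted p = 0.00419), Fdps by -0.87 ± 0.15 (adjusted p = 0.00243) and Mvk by -0.64 ± 0.13 (adjusted p = 0.00814) on the log2 scale. Hmgcs1 (-0.79), Pmvk (-0.77) and Idi1 (-0.66) also passed, with adjusted p of 0.0337, 0.0275 and 0.0278. Acat2 (-0.52, adjusted p = 0.116) and Acat3 (-0.43, adjusted p = 0.116) did not. Without 1 library at a time the count was 2 to 4, namely 3 when any of the Scm libraries or replicate 3 of R-Scm 12 h was left out, 2 when its replicate 2 was, and 4 otherwise.

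After 24 h in Scm the libraries lay apart. Replicate 1 was between the Scm and Rcm libraries in all members but Pmvk, and replicates 2 and 3 were both below the Scm mean in all members but Acat3. The summed members had 1261, 748 and 713 CPM in R-Scm 24 h, and replicate 1 was the highest of the 3 libraries in all 8 members. It stood at 67.7% to 87.7% of the Rcm mean of each gene, replicates 2 and 3 at 33.1% to 66.7%. Against Rcm, 4 members (Acat3, Mvd, Idi1 and Fdps) were DEGs and lower, against 0.377% of all genes tested, with a median log2 fold change of -0.84. Leaving out replicate 1 of R-Scm 24 h gave 8, and leaving out its replicate 2 or 3 gave 0. The count was 1 without Rcm replicate 1 or 2 and 2 without Rcm replicate 3, and it was 8 with DESeq2 and 0 with edgeR on these groups alone. The summed fibroblast markers stood apart in the same library, at 12532 CPM in replicate 1 and 8920 and 8326 CPM in the others, and their part in the result was not tested.

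Fdps had 280, 161 and 163 CPM in R-Scm 24 h and a log2 fold change of -0.95 ± 0.15 (SE) against Rcm (adjusted p = 0.00803). All 3 libraries were below Rcm, and replicate 1 lay between Rcm and the other replicates. Between R-Scm 24 h and Rcm, 11.2% of all genes tested did not overlap. Mvd had 40.1, 19.3 and 28.5 CPM and a log2 fold change of -0.99 ± 0.21 (adjusted p = 0.0487). Idi1 had 176, 114 and 96.4 CPM and a log2 fold change of -0.92 ± 0.17 (adjusted p = 0.0261). Replicate 1 was again the library closest to Rcm. With the processed copies added the values were -0.96 for Fdps (adjusted p = 0.00767) and -0.92 for Idi1 (adjusted p = 0.0469). Acat3 differed by -0.84 ± 0.16 (adjusted p = 0.0267), and with Acat2 and Acat3 counted together the change was -0.73 (adjusted p = 0.103). Acat2 (-0.71), Hmgcs1 (-0.84), Mvk (-0.61) and Pmvk (-0.74) had adjusted p of 0.134, 0.0926, 0.0504 and 0.116.

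Against Scm, 0 of 8 members were DEGs in R-Scm 24 h with edgeR or DESeq2, and 0 had an unadjusted p under 0.05, against 0.592% of all genes called. Their log2 fold changes ran from -0.34 to 0.21. Against R-Scm 12 h, 2 of 8 were DEGs and higher, against 0.774% of all genes tested. Fdps rose by 0.96 ± 0.15 (adjusted p = 0.00659) and Idi1 by 0.75 ± 0.17 (adjusted p = 0.0458) on the log2 scale from 12 h to 24 h. The other 6 had differences of 0.43 to 0.86 that did not pass. Leaving out replicate 1 of R-Scm 24 h or any of the R-Scm 12 h libraries gave 1, and the count was 0 with edgeR on these groups alone.

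**Figure D2:**
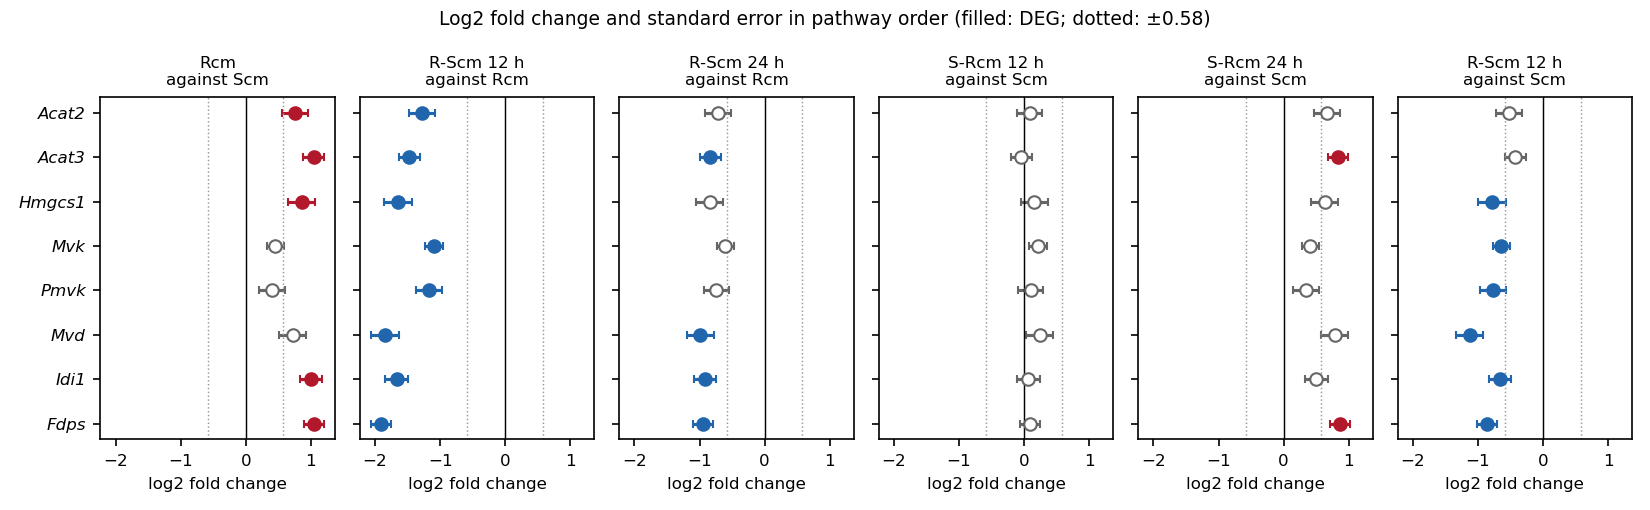
Log2 fold change (horizontal axes) and standard error of the 8 enzymes, listed in pathway order, in 6 comparisons. Filled points are DEGs, red for higher and blue for lower, open points did not pass, and dotted lines mark a log2 fold change of 0.58 in either direction. All 8 points are filled and left of the line in R-Scm 12 h against Rcm, and none is filled in S-Rcm 12 h against Scm.

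After the opposite exchange no member passed at 12 h and 2 passed at 24 h. In S-Rcm 12 h against Scm, 0 of 8 members were DEGs with edgeR or DESeq2, and 0 had an unadjusted p under 0.05, against 0.858% of all genes called. The summed members had 951, 976 and 1001 CPM. Log2 fold changes ran from -0.04 ± 0.16 (SE) in Acat3 to 0.24 ± 0.21 in Mvd, with a median of 0.092. Fdps, which differed by 0.09 ± 0.15 (adjusted p = 0.866), had 197, 193 and 210 CPM. Its groups overlapped. With the processed copies added, Fdps differed by 0.03 and Idi1 by 0.07. At this time point Hmgcs1 (0.16), Mvk (0.21), Pmvk (0.10), Acat2 (0.09) and Idi1 (0.07) also showed small differences with adjusted p of 0.504 to 0.914.

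At 24 h in Rcm, 2 of 8 members were DEGs and higher than in Scm, against 0.338% of all genes tested, with a median log2 fold change of 0.65. The summed members had 1586, 1362 and 1297 CPM. Fdps had 370, 322 and 336 CPM and a log2 fold change of 0.86 ± 0.15 (SE, adjusted p = 0.0167). All 3 libraries were above those of Scm (19.5% of all genes tested did not overlap, in either direction). With its processed copies added the value was 0.84 (adjusted p = 0.0158), and that of Idi1 was 0.56 (adjusted p = 0.324). Acat3 had 37.3, 26.6 and 28.9 CPM against 19.0, 15.3 and 17.6 CPM in Scm, a log2 difference of 0.84 ± 0.16 (adjusted p = 0.0254). Counted together with Acat2, the change was 0.68 (adjusted p = 0.169). Mvd (0.78), Acat2 (0.66), Hmgcs1 (0.63), Idi1 (0.50), Mvk (0.41) and Pmvk (0.35) did not pass with edgeR over all 18 libraries (adjusted p of 0.148 to 0.716). The count was 0 without any 1 of the Scm libraries and without S-Rcm 24 h replicate 1 or 3, and 2 without its replicate 2. With DESeq2 Mvd passed (adjusted p = 0.0316). With edgeR on these groups alone Mvd passed (adjusted p = 0.0102) and Acat3 did not (adjusted p = 0.0561). The summed fibroblast markers were 12420 CPM in S-Rcm 24 h replicate 1 and 9171 and 9337 CPM in the others, and their part in the result was not tested.

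From 12 h to 24 h in Rcm, 2 of 8 members were DEGs and higher, against 0.156% of all genes tested: Acat3 by 0.88 ± 0.16 (adjusted p = 0.0335) and Fdps by 0.78 ± 0.15 (adjusted p = 0.0439) on the log2 scale. This count was 1 without S-Rcm 24 h replicate 2 and 0 without any other library of these groups. Compared with cells kept in Rcm, S-Rcm 24 h had 0 of 8 DEGs with edgeR or DESeq2, against 0.221% of all genes called, and 1 member with an unadjusted p under 0.05. That member was Idi1, which had 194, 179 and 143 CPM, 70.7% of its mean in Rcm. All its S-Rcm 24 h libraries lay below those of Rcm, and the log2 difference was -0.50 ± 0.17 (adjusted p = 0.431). The Fdps libraries also lay below those of Rcm, with a log2 difference of -0.18 ± 0.15 (adjusted p = 0.803). Of all genes tested, 12.8% did not overlap between these groups. The 7 means other than that of Idi1 were 85.5% to 104% of those in Rcm.

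**Figure D3:**
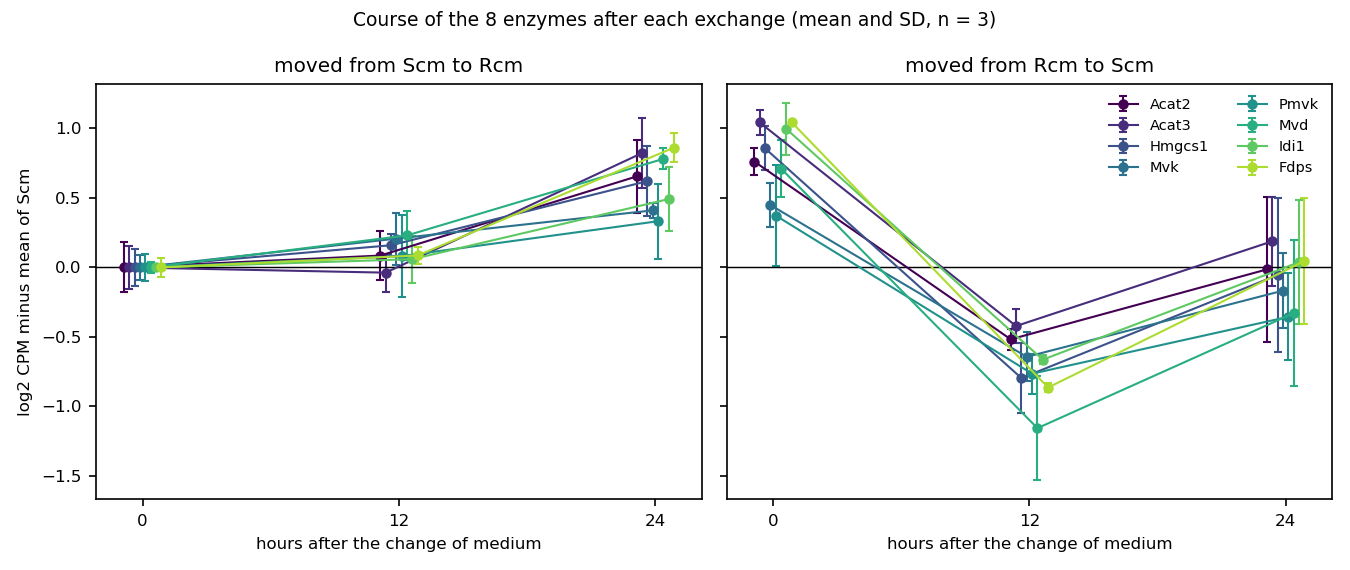
Log2 CPM minus the mean of Scm (vertical axis) against hours after the change of medium (horizontal axis), with the mean and SD of 3 libraries for each enzyme and small sideways shifts to part the points. At 0 h the left panel shows Scm and the right panel Rcm. The left panel stays near 0 at 12 h and lies above 0 at 24 h, whereas the right panel drops below 0 at 12 h and returns toward 0 with wide bars at 24 h.

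Whether the exchanges mirrored each other was tested by adding the log2 change of R-Scm (against Rcm) to that of S-Rcm (against Scm), a sum of 0 being equal and opposite changes. A change shared by both exchanges, to any new medium or with more hours in culture, also enters the sum. It cannot be told apart from unequal changes after the sera. At 12 h all 8 members had a sum below 0 and were DEGs by it, against 3.09% of all genes tested, with a median of -1.50. The sums were -1.82 ± 0.21 (SE) for Fdps (adjusted p = 0.000213), -1.61 ± 0.30 for Mvd (adjusted p = 0.00594), -1.60 ± 0.24 for Idi1 (adjusted p = 0.00148) and -1.49 ± 0.30 for Hmgcs1 (adjusted p = 0.0111). Acat3 had -1.51 ± 0.23 (adjusted p = 0.00132), Acat2 -1.20 ± 0.28 (adjusted p = 0.0255), Pmvk -1.07 ± 0.28 (adjusted p = 0.0438) and Mvk -0.88 ± 0.19 (adjusted p = 0.0147). Without 1 library at a time 6 to 8 members passed. At 24 h the sums ran from -0.41 to -0.00053, and 0 of 8 passed with edgeR or DESeq2, with 0 at an unadjusted p under 0.05 and 0.0390% of all genes called. The wide spread of R-Scm 24 h enters these sums.

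**Figure D4:**
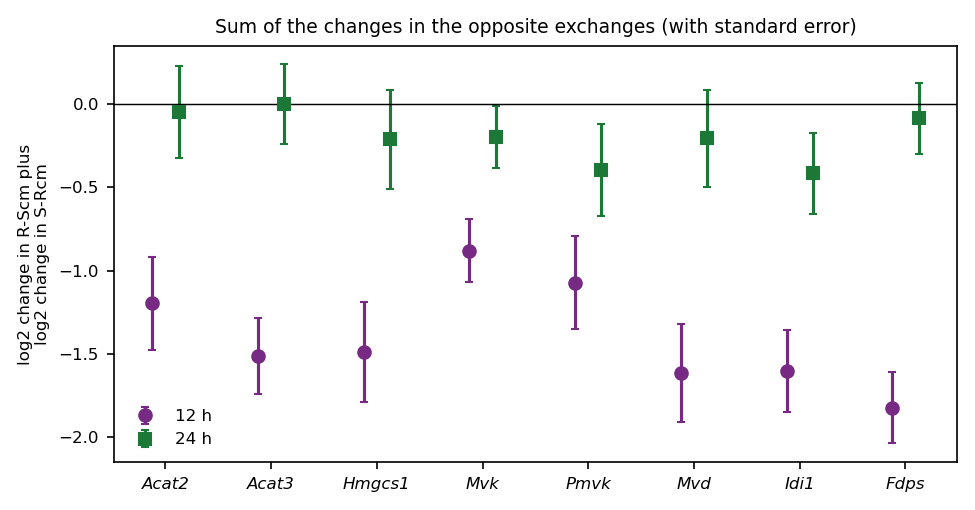
Sum of the log2 changes in the opposite exchanges (vertical axis) for each enzyme at 12 h (circles) and 24 h (squares), with standard errors. At 12 h all 8 sums lie between -1.82 and -0.88, and at 24 h between -0.41 and -0.00053.

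The neighbouring enzymes of the pathway were described by lists. Of 12 enzymes between farnesyl diphosphate and cholesterol, 8 were DEGs and higher in Rcm than in Scm (median log2 fold change 0.81) and 11 were DEGs and lower in R-Scm 12 h than in Rcm (median -1.35). In R-Scm 24 h 2 of the 12 were lower, in S-Rcm 12 h 0 were DEGs and in S-Rcm 24 h 2 were higher. The shares of all genes tested that were DEGs in these 5 comparisons were 2.30%, 2.74%, 0.377%, 0.858% and 0.338%, in the same order. Of 12 genes that use isoprenoids for coenzyme Q, dolichol, tRNA and protein prenylation, 0 were DEGs in each, which is close to these shares. Their medians lay between 0.0087 and 0.11. In the mitochondria Acat1, a thiolase relative of Acat2, had group means of 142 to 165 CPM and passed in none of the same 5 comparisons. Idi2, a relative of Idi1, had at most 4 counts in a library.

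Levels of the members ran together over the 18 libraries, which share the 6 conditions. Pearson's r of a member with the mean of the other members ran from 0.83 for Pmvk to 0.99 for Fdps. After the group means were taken out it ran from 0.22 for Pmvk to 0.93 for Fdps, a measure that includes the high libraries of R-Scm 24 h and S-Rcm 24 h. Among 9821 other genes with a mean of at least 10 CPM, those most like the members' mean included Nsdhl (r = 0.99), Acly (0.98), Cyp51 (0.98), Insig1 (0.97), Fads2 (0.96), Fads1 (0.96), the Fdps copy Gm3571 (0.96) and Rdh11 (0.95). Nsdhl and Cyp51 are sterol synthesis enzymes, Acly makes cytosolic acetyl-CoA, Insig1 retains SREBP in the endoplasmic reticulum, and Fads1 and Fads2 desaturate fatty acids.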

How the data were processed

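The deposited values were raw counts of reads per gene, which the authors made from paired-end libraries (RNeasy RNA, ABclonal kit, NovaSeq) aligned to GRCm38 with HISAT2. The counting tool and its use of strand and of reads with several alignments are not given in the sources used here. Columns were assigned to groups from the labels, and 0 were left out. Genes were kept with edgeR's filterByExpr (15381 kept, 40106 removed), scaled with TMM (factors 0.963 to 1.03) and fitted with edgeR's robust quasi-likelihood model over all 18 libraries. P-values were adjusted by Benjamini-Hochberg over the genes tested, for each of 12 comparisons. Genes counted as DEGs past 0.58 on the log2 scale in either direction, with an adjusted p under 0.05. Log2 CPM used a prior count of 2. The labels do not say that replicates were separate cultures, so p-values measure the spread between these libraries, which may be technical. Library totals were 14534906 to 20313715, and reads carry no molecular identifiers.

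The members and lists were chosen with earlier results of these data known. Named genes were the 8 members, Tcp1, Acat1, Idi2 and the 10 genes most like the members, and some genes that the rule names are not reported here. Gene positions came from GENCODE M21 (55227 of 55487 identifiers matched), copies from blastn and promoters from RefSeq. The tests were checked on simulated data. Alternatives were a stricter adjusted p, the adjusted p alone, RLE scaling, no filter, a replicate block by title number or, added after seeing the data, by column number, DESeq2, edgeR on the compared groups alone, each library left out, Acat2 and Acat3 summed, and Fdps and Idi1 summed with their processed copies. Tests ran in edgeR 4.0.16 and DESeq2 1.42.0 under R 4.3.3 with limma 3.58.1, alignments in blastn 2.17.0, and plots in matplotlib 3.10.9 under Python 3.11.15.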

Additional observations from a re-analysis of the deposited data

Results flagged for a closer look

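Differences between time points or between the exchanges that passed the test of the difference itself were singled out, and groups of 3 libraries were too small for a search for single outlying samples. From 12 h to 24 h the log2 difference was 0.75 for Idi1 and 0.96 for Fdps in R-Scm, and 0.88 for Acat3 and 0.78 for Fdps in S-Rcm. The log2 changes of the opposite exchanges at 12 h summed to -1.20 for Acat2, -1.51 for Acat3, -1.49 for Hmgcs1, -0.88 for Mvk, -1.07 for Pmvk, -1.61 for Mvd, -1.60 for Idi1 and -1.82 for Fdps. The differences in R-Scm between 12 h and 24 h include replicate 1 of R-Scm 24 h, whose summed members had 1261 CPM against 748 and 713 CPM.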

How the results depend on the processing

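All 8 members remained DEGs in R-Scm 12 h against Rcm under every alternative, and 0 were DEGs in S-Rcm 12 h against Scm, R-Scm 24 h against Scm, S-Rcm 24 h against Rcm and the summed exchanges at 24 h under any. With an adjusted p under 0.01 the member counts were 3 in Rcm against Scm, 1 in R-Scm 24 h against Rcm, 0 in S-Rcm 24 h against Scm, 3 in R-Scm 12 h against Scm, 1 between the R-Scm time points, 0 between the S-Rcm time points and 4 for the exchanges summed at 12 h. With no filter the count in Rcm against Scm was 3, and Hmgcs1 in R-Scm 12 h against Scm (adjusted p = 0.0655) and Pmvk in the 12 h sum (0.0600) lost their calls. RLE scaling lost Acat2 in Rcm against Scm (0.0566) and Mvd in R-Scm 24 h against Rcm (0.0517). With DESeq2 it was 8 in R-Scm 24 h against Rcm and 5 between the R-Scm time points, and with edgeR on the compared groups alone these were 0 and 0, and 1 between the S-Rcm time points. DESeq2 called 163 genes in R-Scm 24 h against Rcm where edgeR called 58. Mvd gained a call in Rcm against Scm and in S-Rcm 24 h against Scm with DESeq2 and with edgeR on the compared groups alone. Acat3 lost its call in S-Rcm 24 h against Scm with the latter.

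Without 1 library at a time the counts were 3 to 4 in Rcm against Scm, 0 to 8 in R-Scm 24 h against Rcm, 0 to 2 in S-Rcm 24 h against Scm, 2 to 4 in R-Scm 12 h against Scm, 1 to 3 between the R-Scm time points and 0 to 1 between the S-Rcm time points. These fits have fewer samples, and other causes were not tested. In S-Rcm 12 h against Scm 4 members, none of them DEGs, changed sign: without 1 library the log2 fold changes were -0.0091 to 0.17 for Acat2, -0.12 to 0.034 for Acat3, -0.036 to 0.14 for Idi1 and -0.052 to 0.23 for Pmvk, and Acat2 with Acat3 summed gave 0.073.

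The replicate numbers were those of the sample titles and did not pair the samples by the correlation of deviations. Libraries with the same number had a median correlation of -0.023 over 45 pairs, 15 of them over 0.1, and 8 of 18 libraries were closest to their own number. A replicate block moved the member count between the R-Scm time points from 2 to 4, ended the call of Acat2 in Rcm against Scm (adjusted p = 0.0685) and added Hmgcs1 in R-Scm 24 h against Rcm (0.0260). The calls over all genes went from 354 to 342 in Rcm against Scm and from 421 to 397 in R-Scm 12 h against Rcm. In 6 libraries the number in the count table's column differs from the title's. A block by column number, chosen after seeing the data, gave member counts of 2 in R-Scm 24 h against Rcm, 0 in S-Rcm 24 h against Scm, 4 between the R-Scm time points and 1 between the S-Rcm time points, and 4, 8, 5 and 6 in Rcm against Scm, R-Scm 12 h against Rcm, R-Scm 12 h against Scm and the 12 h sum. Libraries with the same column number had a median correlation of -0.015 over 36 pairs, 11 of them over 0.1. Replicate 1 had the highest fibroblast marker sum in both 24 h groups, at 12532 CPM in R-Scm and 12420 CPM in S-Rcm, and the deviations of these libraries had a correlation of 0.23 across genes, which are not independent replicates.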

Other observations

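Beyond the pathway, a list of 10 genes of the SREBP machinery and SREBP targets held 1 DEG higher in Rcm than in Scm and 5 DEGs lower in R-Scm 12 h than in Rcm, with medians of 0.25 and -0.51. Of all genes tested, 2.30% and 2.74% were DEGs in these comparisons. The gene of the transcription factor itself, Srebf2, had a log2 fold change of 0.14 ± 0.14 (SE, adjusted p = 0.626, edgeR) in Rcm against Scm and of -0.81 ± 0.14 (adjusted p = 0.00307) in R-Scm 12 h against Rcm. Srebf1 had -0.17 ± 0.10 (adjusted p = 0.436) and -0.14 ± 0.10 (adjusted p = 0.558). In R-Scm 24 h, S-Rcm 12 h and S-Rcm 24 h, 0 of the 10 genes were DEGs against the medium the cells came from. The shares of all genes tested were 0.377%, 0.858% and 0.338%.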
